A study of Mus musculus with 24 samples.

Results

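The genes for 3 GATA transcription factors, Gata3, Gata6 and Gata2, were described by the open chromatin around them. A region was taken into the set when a peak of any list overlapped the gene body or the 50 kb on either side of it (protein-coding genes of the GENCODE annotation, mouse build GRCm38). Of 134385 regions in the whole series, 39 met this rule, with 16 at Gata3, 15 at Gata6 and 8 at Gata2. Gata3 lies on chromosome 2 from 9857078 to 9890034 on the minus strand, Gata6 on chromosome 18 from 11052064 to 11085635 on the plus strand, and Gata2 on chromosome 6 from 88193891 to 88207032 on the plus strand. Each region is named by the distance of its centre from the start of the first-numbered transcript of its gene, in kb and positive downstream. For 5 of the 39 regions the nearest protein-coding start belonged to another gene, 3 in the Gata3 window and 2 in the Gata2 window.

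Chromatin accessibility was measured by ATAC-seq, which reads out where a transposase can insert into DNA, in 24 samples that formed 12 groups of 2 replicates, and the study asked how SOX9 alters the chromatin of epidermal stem cells (EpdSCs). In vivo, EpdSCs were sorted from male CD1 mice that carried K14rtTA and TRE-myc-Sox9, so that a Krt14 promoter drove the activator and doxycycline (DOX) switched on Sox9 in Krt14-expressing cells. The in vivo groups were D0 (age P21, which carried both alleles as well), W1 (P28), W2 (P35), W6 (P63) and W12. The W numbers count weeks after DOX began at D0. Animal age rose with time on DOX from D0 to W6, and no list came from uninduced skin of a later age. Age and time on DOX thus cannot be told apart. For W12, epidermis of newborn pups had been transplanted to immunocompromised Nude hosts, so time and tissue source cannot be told apart for W12. Each in vivo replicate pooled 2 to 4 animals. The 7 culture groups were keratinocytes of newborn pups, noDOX and 6 arms in 1 µg per ml of DOX, namely WT-SOX9, ΔHMG-SOX9 (without the DNA-binding domain), ΔTA-SOX9 (without the transactivation domain), AFOS (a dominant-negative inhibitor of AP1), SOX9+AFOS, and SOX9+ARID1a (plus ARID1a, which belongs to the SWI/SNF remodelling complex). The peak names of the 6 arms record 3 days of DOX. All culture cells carried K14rtTA, with TRE-myc-Sox9 in noDOX and WT-SOX9, TRE-myc-Sox9noHMG in ΔHMG-SOX9, TRE-myc-Sox9noTA in ΔTA-SOX9, and TRE-FLAG-AFOS without a SOX9 transgene in AFOS. SOX9+AFOS carried TRE-myc-Sox9 and TRE-FLAG-AFOS, and SOX9+ARID1a carried TRE-myc-Sox9 and TRE-ARID1a. Arms other than WT-SOX9 had no uninduced list of their own genotype here.

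GATA factors are zinc-finger proteins that bind a short motif around the letters GATA and can set the identity of a tissue. GATA3 is a regulator of epidermal differentiation and barrier formation, and it is also needed in the inner root sheath of the hair follicle and in T cells. GATA6 is known in skin from the upper hair follicle and the sebaceous duct. GATA2 is best known from blood progenitors and mast cells. AP1 factors, which bind TGACTCA and TGAGTCA, are abundant at enhancers of keratinocytes.

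The sequences that the results turn on are printed first, from the GRCm38.p6 reference and its RefSeq promoter table. For the 4 distal regions the 300 bases with the most matches are shown, counting AGATAA first and, in the +43.2 kb region, AP1 letters first, and capitals mark AGATAA and also AGATAG and also TGATAA and also TGATAG or their reverse complements (GATA-type matches) and, in that region, TGACTCA. The Gata3 +18.3 kb and +52.7 kb regions were high at D0 and low in late in vivo lists, the +43.2 kb region had the highest score of the set, and the Gata2 -8.5 kb region was the Gata2 region found in all 5 in vivo lists. The 250 bases before the Gata3 start are shown because a peak lay there in all 12 lists. They hold none of these letters, so nothing is in capitals.
Gata3 +18.3 kb, chr2:9860177-9860476, plus strand: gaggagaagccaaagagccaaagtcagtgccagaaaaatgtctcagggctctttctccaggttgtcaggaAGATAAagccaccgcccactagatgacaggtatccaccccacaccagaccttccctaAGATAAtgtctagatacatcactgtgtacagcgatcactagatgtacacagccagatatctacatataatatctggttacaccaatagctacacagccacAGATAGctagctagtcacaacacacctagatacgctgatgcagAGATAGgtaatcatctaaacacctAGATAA
Gata3 +52.7 kb, chr2:9825758-9826057, plus strand: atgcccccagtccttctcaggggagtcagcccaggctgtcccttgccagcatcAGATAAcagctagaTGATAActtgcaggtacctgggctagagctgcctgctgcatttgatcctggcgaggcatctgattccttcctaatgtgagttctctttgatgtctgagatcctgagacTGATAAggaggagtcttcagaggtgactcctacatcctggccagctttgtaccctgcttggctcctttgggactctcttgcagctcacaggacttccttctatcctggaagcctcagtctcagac
Gata3 +43.2 kb, chr2:9835212-9835511, plus strand: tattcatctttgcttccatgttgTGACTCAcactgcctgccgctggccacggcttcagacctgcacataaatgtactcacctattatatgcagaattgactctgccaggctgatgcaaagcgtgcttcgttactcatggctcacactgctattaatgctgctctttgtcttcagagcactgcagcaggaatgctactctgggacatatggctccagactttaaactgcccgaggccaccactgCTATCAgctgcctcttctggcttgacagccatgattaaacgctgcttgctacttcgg
Gata2 -8.5 kb, chr6:88189685-88189984, plus strand: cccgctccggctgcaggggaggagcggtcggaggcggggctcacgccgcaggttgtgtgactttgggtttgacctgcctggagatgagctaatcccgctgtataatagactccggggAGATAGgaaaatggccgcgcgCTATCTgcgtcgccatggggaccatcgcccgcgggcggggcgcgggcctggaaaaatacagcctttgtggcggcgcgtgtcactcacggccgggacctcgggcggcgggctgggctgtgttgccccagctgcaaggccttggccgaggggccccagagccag
Gata3 promoter, chr2:9878601-9878850, minus strand: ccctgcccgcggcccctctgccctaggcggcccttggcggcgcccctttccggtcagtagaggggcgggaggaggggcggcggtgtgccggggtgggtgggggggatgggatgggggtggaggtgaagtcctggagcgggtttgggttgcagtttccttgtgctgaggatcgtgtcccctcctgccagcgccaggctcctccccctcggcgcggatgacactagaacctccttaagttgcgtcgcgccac

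The Gata3 +18.3 kb region, in an intron of Gata3, was dense in GATA letters. Its 674 bases held 4 matches to AGATAA or TTATCT, and 3 of them stand in the printed stretch at bases 71, 128 and 295. Among stretches of the same length centred on all 134385 regions, 0.182% held at least 4 matches and the median was 0. With AGATAG as well as TGATAA as well as TGATAG counted too, it held 6 matches, a number that 0.719% of regions reached. The Gata3 +52.7 kb region held 1 match to AGATAA and 3 of the wider set, which 13.1% of regions of its length reached. Across the whole set few regions held the letters. In the central 200 bases, 6 of 39 regions (15.4%, Wilson 95% interval 7.25% to 29.7%, counting error only) held AGATAA or TTATCT, beside 10.7% of all regions. In whole regions the GATA share was 25.6% beside 27.9%, so its direction turned with the stretch. AP1 letters stood in 15.4% of members beside 19.4% of all regions in the central 200 bases and in 43.6% beside 33.0% in whole regions, so here too the direction turned. SOX letters stood in 25.6% beside 27.8%. A match says only that the letters are present and not that a factor bound them.

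The labelled cell type was checked by peaks over marker starts, which do not by themselves fix it. The paper gives Krt5, for one, as shared by EpdSCs and hair follicle stem cells. All 5 basal keratinocyte markers (Krt5, Krt14, Trp63, Itga6 and Itgb4) had a peak over a transcription start in all 12 lists. The starts of Ptprc, Pecam1, Kit, Cd3e, Cd4 and Cpa3 had none in any list. Pdgfra, a fibroblast marker, had a peak in 4 in vivo and 6 culture lists, and Tal1, a blood progenitor marker, had one at D0, W2 and W12. Lrig1 and Plet1, which mark the upper hair follicle and sebaceous duct where GATA6 is used, had one in all 12 lists. The hair follicle markers differed, as Lhx2 had a peak in 4 in vivo lists and none in culture, and Cd34 had one at W6 and W12. The part of cell composition in the results was not tested, and fewer cells of a type and less signal per cell cannot be told apart in sorted bulk samples.

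Each group was deposited as 1 peak list made from both replicates, so every value is the authors' value for the pooled list, with no replicate error, and no difference was tested. The lists held 49458 to 75956 peaks. Their summed scores were 925672 to 996710 and the lowest score kept was 3.0, so a region without a peak is one below that level and not one shown to be closed. Read depth is unknown. A Sox9 exon 2 peak was found in culture in the 5 lists of DOX arms that carry SOX9 and not in noDOX or AFOS. In vivo it was found at W12 alone, so it gave no check of W1, W2 and W6. The list labelled AFOS did not stand apart at AP1 letters, since 15.2% of noDOX regions with an AP1 match were absent from it and 17.8% of those without a match, whereas the shares were 56.9% and 28.7% in SOX9+AFOS and 38.3% and 25.0% in WT-SOX9.

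In vivo, 29 of the 39 regions had a peak in at least 1 list, and 23 had one in culture, with 13 in both. The split between the systems ran through every window. At Gata3 8 of 16 regions were in vivo only, at Gata6 7 of 15, and at Gata2 1 of 8, which makes 16 of 39 (41.0%) beside 27.9% of all regions. A further 10 regions were found in culture alone (25.6%, beside 29.1% of all regions). Only 4 regions were in all 12 lists (10.3%, beside 14.1%), namely Gata3 -10.8 kb, -0.4 kb and +43.2 kb and Gata6 +0.5 kb. In the map of scores by distance, the highest in vivo score of Gata3 (+43.2 kb, W2) and of Gata6 (+74.7 kb, W2) lies downstream of the gene body, and Gata2 carries few and low peaks.

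**Figure D1:**
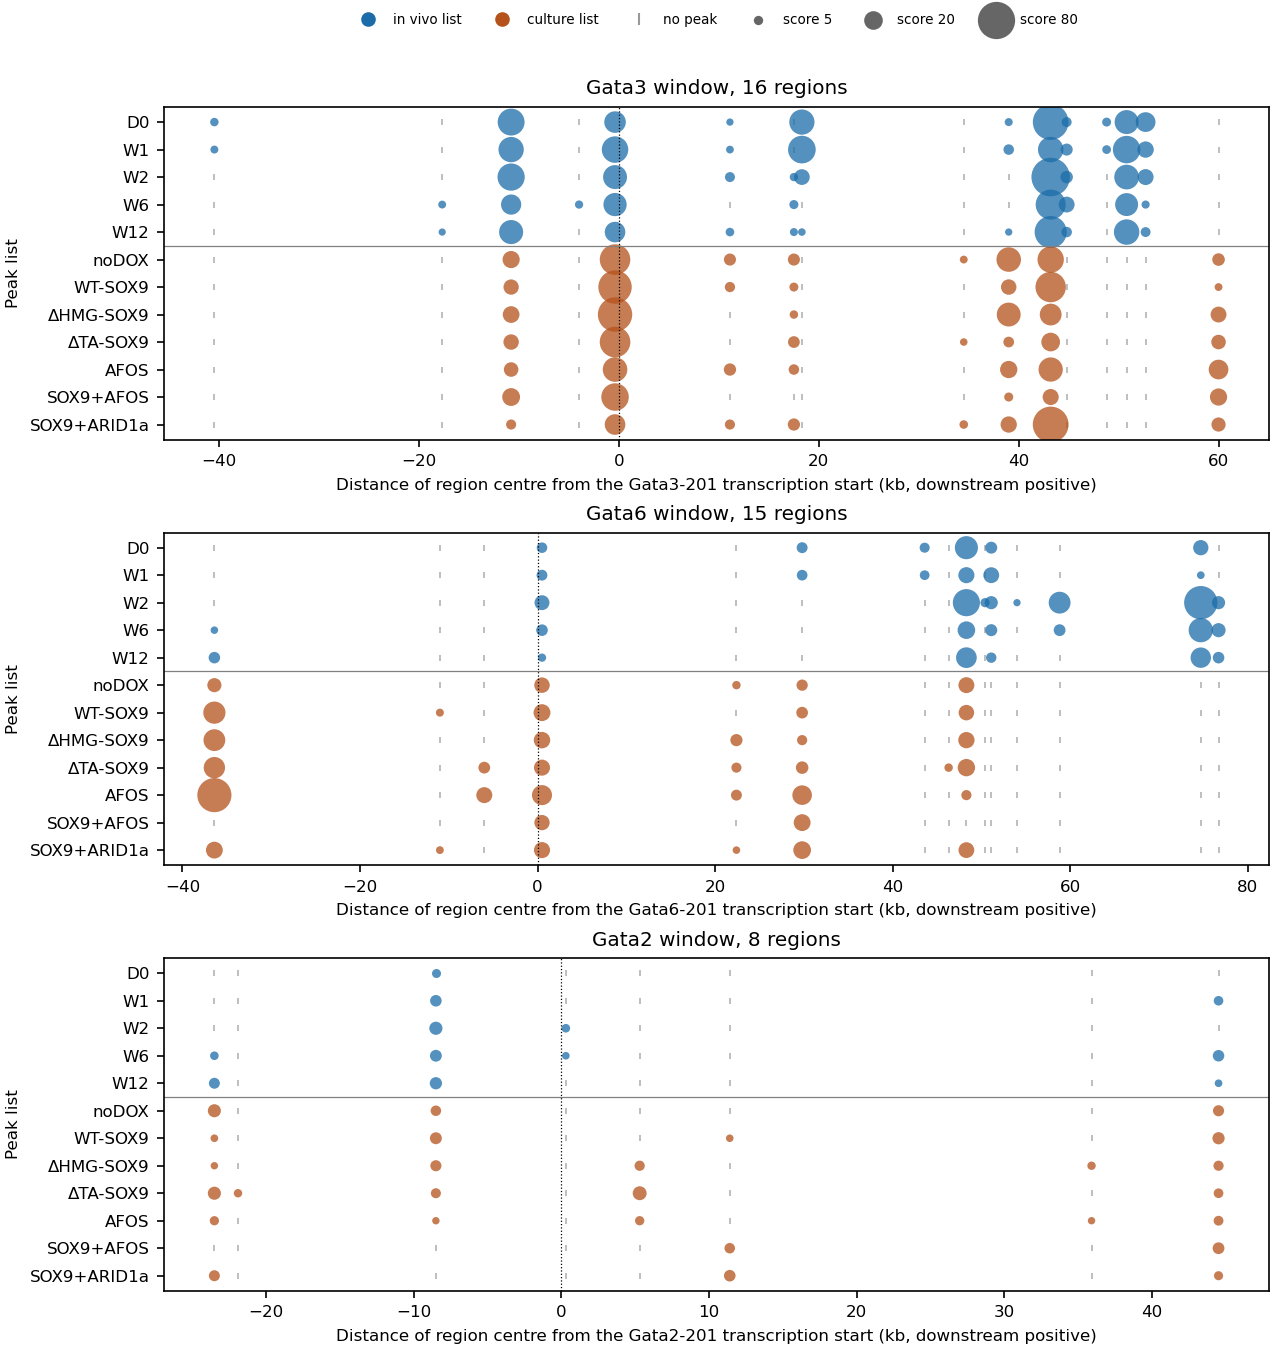
Map of the 39 regions by distance of the region centre from the transcription start (x axis, kb) and by peak list (y axis), for Gata3, Gata6 and Gata2. Circle area is the normalized peak score, grey ticks mark a list without a peak in that region, and the line separates in vivo from culture lists; 8 Gata3 regions carry circles in vivo alone.

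At the Gata3 promoter the chromatin was open throughout. The -0.4 kb region spans the start of the main Gata3 transcript and scored 26.8 at D0, 40.4 in W1, 33.0 in W2, 31.1 in W6 and 24.4 in W12. The fold enrichment over local background stayed between 6.43 and 7.72. By score W1 was the highest, 1.51 times D0, but by fold enrichment W1 lay below D0. In culture it scored 53.8 in noDOX, 64.2 in WT-SOX9, 68.1 in ΔHMG-SOX9, 54.0 in ΔTA-SOX9, 34.9 in AFOS, 43.6 in SOX9+AFOS and 24.5 in SOX9+ARID1a. The lowest was SOX9+ARID1a, 2.196 times below noDOX. The starts of the longer transcripts, further upstream, had no peak over them in any list, but the -10.8 kb region ends 16 bases short of one of them and overlaps an untranslated exon of Gata3 and the start of 9230102O04Rik. That region scored 41.7 at D0, 36.9 in W1, 42.7 in W2, 23.6 in W6 and 33.3 in W12. In culture it was lower, from 12.2 in AFOS to 18.4 in SOX9+AFOS in 6 lists and 5.89 in SOX9+ARID1a.

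The Gata3 +18.3 kb intron region (chr2:9859968-9860641) was high early and low late in vivo. It had been singled out by earlier results of these data and is described without a test. It scored 36.7 at D0, 44.0 in W1, 14.2 in W2 and 3.29 in W12, and W6 held no peak there. D0 and W1 were high, W2 was intermediate, W12 was close to the lowest score kept and W6 under it. The W2 score was 2.58 times and the W12 score 11.2 times below D0. Of 45564 regions with a peak at both D0 and W12, 0.0132% had a lower ratio of W12 to D0. The region was chosen with such values known, so this rank is no measure of chance. The 16.3% of D0 regions without a peak at W12 have no ratio and are not in the rank. The fold enrichment was 16.4 at D0, 13.1 in W1, 9.03 in W2 and 4.34 in W12, which is 3.77 times below D0, so that W1 lay above D0 by score and below it by fold enrichment. None of the 7 culture lists had a peak there, noDOX included.

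Next to it, 139 bases away in the same intron, the Gata3 +17.5 kb region had the opposite order in vivo at a far lower level. It had no peak at D0 and W1, and scored 4.01 in W2, 4.73 in W6 and 3.71 in W12. In culture it was found in 6 of 7 lists at 4.13 to 8.65 and was absent from SOX9+AFOS. The in vivo peaks of this region rest on scores close to the lowest kept, and none of them passed a score of 5. The 2 neighbours thus differed in which system and which times held a peak.

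Downstream of Gata3 lay a cluster of intergenic regions between +34.5 kb and +60.0 kb. The +43.2 kb region was the strongest of the set, with 73.4 at D0, 37.2 in W1, 85.4 in W2, 51.8 in W6 and 59.4 in W12. W1 was the lowest and W2 the highest by score, whereas the fold enrichment was highest at D0 (16.9, and 15.8 in W2). The W6 score was 1.42 times below D0. In culture the same region scored 40.0 in noDOX, 53.3 in WT-SOX9, 27.4 in ΔHMG-SOX9, 20.2 in ΔTA-SOX9, 33.9 in AFOS, 14.9 in SOX9+AFOS and 73.9 in SOX9+ARID1a. The order of the arms was wide: SOX9+AFOS was 3.57 times below WT-SOX9, ΔTA-SOX9 2.64 times below it, and SOX9+ARID1a 1.39 times above it. Its 735 bases held 1 AP1 match, and 32.7% of stretches of that length held at least 1.

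The +44.8, +50.8 and +52.7 kb regions had peaks in vivo and in no culture list. The +52.7 kb region scored 22.5 at D0, 15.4 in W1, 14.7 in W2, 3.83 in W6 and 5.64 in W12. It was lower in each later list than at D0, 5.86 times at W6 and 3.98 times at W12, and its fold enrichment went from 8.36 at D0 to 3.14 in W6. The +50.8 kb region, only about 2 kb away, scored 33.2 at D0, 43.5 in W1, 35.2 in W2, 30.3 in W6 and 37.2 in W12. It stayed level where its neighbour did not. The +44.8 kb region scored 5.70 at D0, 8.38 in W1, 8.95 in W2, 14.5 in W6 and 6.34 in W12, with its highest value at W6.

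Regions with their higher values in culture completed the cluster. The +39.0 kb region was weak in vivo, with 3.72 at D0, 6.39 in W1 and 3.08 in W12 and no peak at W2 or W6. In culture it scored 34.6 in noDOX, 13.8 in WT-SOX9, 32.9 in ΔHMG-SOX9, 6.64 in ΔTA-SOX9, 17.3 in AFOS, 4.75 in SOX9+AFOS and 15.3 in SOX9+ARID1a. It was 2.52 times lower in WT-SOX9 than in noDOX, 5.22 times lower in ΔTA-SOX9 and 7.29 times lower in SOX9+AFOS, whereas ΔHMG-SOX9 lay near noDOX. The +60.0 kb region had peaks in culture alone, at 9.14 in noDOX, 3.56 in WT-SOX9, 14.5 in ΔHMG-SOX9, 12.2 in ΔTA-SOX9, 22.3 in AFOS, 17.1 in SOX9+AFOS and 11.6 in SOX9+ARID1a, and WT-SOX9 was the lowest of the 7. The +34.5 kb region had peaks of 3.56 in noDOX, 3.30 in ΔTA-SOX9 and 4.29 in SOX9+ARID1a and none in WT-SOX9, ΔHMG-SOX9, AFOS or SOX9+AFOS.

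Some Gata3 regions had low-scoring peaks in early or in late lists alone. The -40.5 kb region, over a start of the neighbouring gene Taf3, had a peak of 4.13 at D0 and 3.63 in W1, and the +48.8 kb region one of 4.61 at D0 and 4.43 in W1. Neither was found later or in culture. The -17.7 kb region had a peak of 3.58 in W6 and 3.01 in W12. The 3 Gata3 regions with a peak at W6 and none at D0 became 0 at a score of at least 5, in lists of equal length and with a common q minimum. The 2 remaining regions, -4.0 kb and +11.1 kb, scored from 3.06 to 8.76 where they had a peak.

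**Figure D2:**
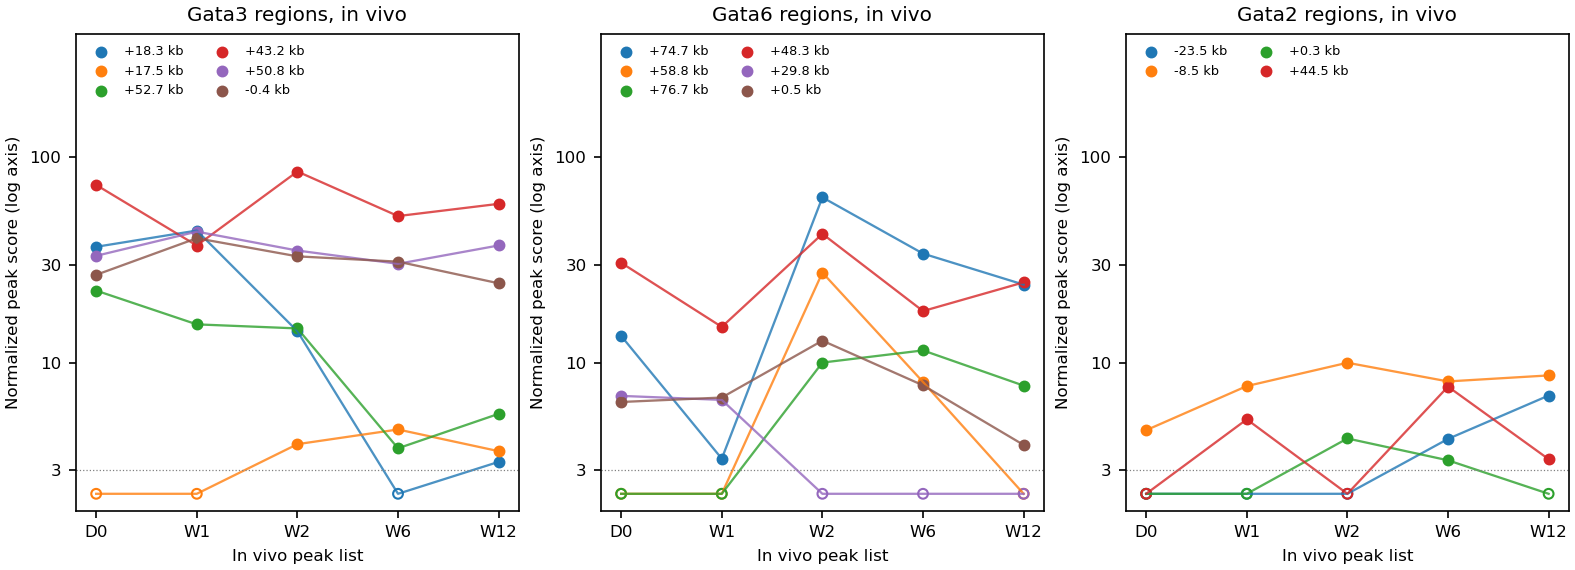
Normalized peak score (y axis, log) in the 5 in vivo lists (x axis) for 6 regions of Gata3, 6 of Gata6 and 4 of Gata2. Filled points are peaks, open points drawn below the dotted line at the lowest score kept are lists without a peak, and lines join the points of a region; Gata3 +18.3 kb goes from 36.7 at D0 to 3.29 in W12 while Gata6 +74.7 kb is highest at W2 with 63.9.

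At Gata6 several regions had their highest in vivo score at W2. The +0.5 kb region, over the main start in all 12 lists, scored 6.44 at D0, 6.77 in W1, 12.8 in W2, 7.76 in W6 and 3.98 in W12. W2 was 1.99 times above D0, and W12 was the lowest. Its fold enrichment followed, from 5.56 at D0 to 8.05 in W2 and 4.13 in W12. In culture it scored between 13.5 in SOX9+AFOS and 23.1 in AFOS, 1.67 times noDOX, with 13.8 in noDOX and 16.5 in WT-SOX9. The central 200 bases held 3 matches to AGATAA or TTATCT, a number that 0.0573% of all regions reached. Its whole 1606 bases held the same 3 matches, and the central 200 bases of Gata3 +18.3 kb held 2. Such shares were computed for chosen regions and stretches and not for every region.

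Distal Gata6 regions downstream of the gene differed between the in vivo lists. The +74.7 kb region scored 13.5 at D0, 3.41 in W1, 63.9 in W2, 34.0 in W6 and 24.0 in W12, so W1 was lowest and W2 highest. The W2 score was 4.73 times D0, which 98.5% of regions found in both lists did not reach. The fold enrichment was 11.7 at D0, 13.3 in W2, 10.1 in W6 and 11.1 in W12, so W2 was 1.14 times D0 by this measure, and W6 and W12 lay below D0 by fold enrichment and above it by score. The +58.8 kb region had no peak at D0, W1 or W12, and scored 27.5 in W2 and 8.06 in W6. The +76.7 kb region had no peak at D0 or W1, and scored 10.02 in W2, 11.5 in W6 and 7.74 in W12. All 3 regions lacked a peak in all 7 culture lists.

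Other Gata6 regions were open from the start. The +48.3 kb region scored 30.7 at D0, 14.9 in W1, 42.4 in W2, 17.8 in W6 and 24.6 in W12. As at +74.7 kb, W1 was the lowest and W2 the highest by score, but its fold enrichment was 10.3 at D0 and 10.2 in W2. In culture it scored 13.9 to 17.4 in 5 of 7 lists, 5.97 in AFOS, and SOX9+AFOS had no peak. The +51.1 kb region was found in vivo alone, at 6.22 to 14.5. The +29.8 kb region, in an intron, had peaks of 6.90 at D0 and 6.59 in W1 and none later, and the +43.6 kb region 5.82 at D0 and 5.46 in W1 and none later.

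In culture the +29.8 kb region was present in all 7 lists, at 7.36 in noDOX, 7.88 in WT-SOX9, 5.996 in ΔHMG-SOX9, 9.07 in ΔTA-SOX9, 22.1 in AFOS, 16.4 in SOX9+AFOS and 18.1 in SOX9+ARID1a. The last 3 arms, whose peak names record fragment input, were all above the other 4. The -36.4 kb region, upstream in an intron of a noncoding gene, was weak in vivo (3.26 in W6 and 7.66 in W12, no peak before). In culture it scored 11.5 in noDOX, 28.4 in WT-SOX9, 27.4 in ΔHMG-SOX9, 26.2 in ΔTA-SOX9, 67.2 in the list labelled AFOS and 16.3 in SOX9+ARID1a, and SOX9+AFOS held no peak. It was 2.47 times higher in WT-SOX9 than in noDOX and about as high in both domain deletions, and 5.83 times higher in the list labelled AFOS. Its central 200 bases held 3 AP1 matches, a number that 0.0841% of all regions reached. Those of the Gata2 -23.5 kb region held 2, which 1.61% reached.

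The remaining 6 Gata6 regions had peaks in 1 to 5 lists. The 4 found in culture alone (-11.0, -6.0, +22.4 and +46.3 kb) scored from 3.30 to 14.8, the highest at -6.0 kb in AFOS. The 2 found at W2 alone (+50.4 and +54.0 kb) scored 4.89 and 3.05.

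Gata2 had little open chromatin in any list. The annotated GENCODE starts of Gata2 had no peak over them in any list. The +0.3 kb region begins 109 bases after the start of the first-numbered Gata2 transcript, overlaps an untranslated exon, and contains a start that RefSeq places at 88198664. It had a peak of 4.28 in W2 and 3.35 in W6 and none in the other 10 lists. The −log10 q of these peaks was 6.75 and 6.60, below the lowest kept at D0 (14.5) and in W1 (9.37). Both peaks were lost at a score of at least 5 and with a common q minimum. The strongest score in the window was 11.2, in ΔTA-SOX9 at the +5.3 kb intron region, which also had 6.05 in ΔHMG-SOX9 and 5.01 in AFOS and no peak elsewhere. This is low beside 85.4 at Gata3 and 67.2 at Gata6.

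The -8.5 kb region was the single Gata2 region at D0. It scored 4.69 at D0, 7.70 in W1, 9.998 in W2, 8.11 in W6 and 8.67 in W12, with every later list above D0, by 2.13 times at W2. Its fold enrichment ran from 6.60 at D0 to 8.75 in W2. In culture it scored 6.36 in noDOX, 8.22 in WT-SOX9, 7.12 in ΔHMG-SOX9, 5.79 in ΔTA-SOX9 and 3.18 in AFOS, and it had no peak in SOX9+AFOS and SOX9+ARID1a. The -23.5 kb region came late in vivo, at 4.26 in W6 and 6.92 in W12, and in culture scored 9.84 in noDOX, 3.38 in WT-SOX9, 3.19 in ΔHMG-SOX9, 9.93 in ΔTA-SOX9, 4.96 in AFOS and 6.98 in SOX9+ARID1a. WT-SOX9 was 2.91 times and ΔHMG-SOX9 3.09 times below noDOX, whereas ΔTA-SOX9 was level with it. The +11.4 kb region was absent from noDOX and present in the 3 arms with full-length SOX9, at 3.31 in WT-SOX9, 6.38 in SOX9+AFOS and 7.77 in SOX9+ARID1a. The WT-SOX9 peak was lost at a score of at least 5 and in lists of equal length.

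In the other 3 Gata2 regions the values were also low. The +44.5 kb region lies in an intron of Dnajb8 and scored 5.30 in W1, 7.65 in W6 and 3.39 in W12, and 4.79 to 8.63 in all 7 culture lists. The +35.9 kb region, in Dnajb8 too, had peaks in ΔHMG-SOX9 and AFOS, and the -21.9 kb region in ΔTA-SOX9, at 3.17 to 4.10.

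**Figure D3:**
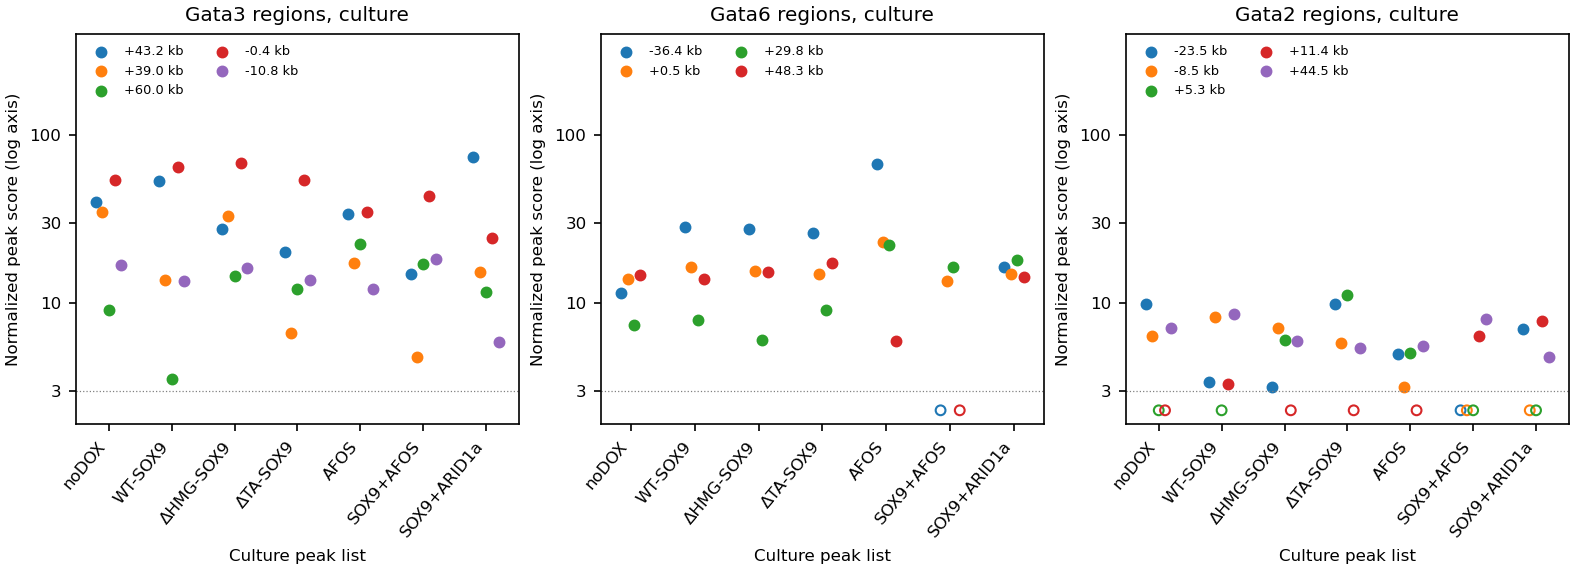
Normalized peak score (y axis, log) in the 7 culture lists (x axis) for 5 regions of Gata3, 4 of Gata6 and 5 of Gata2. Filled points are peaks and open points below the dotted line are lists without a peak; Gata6 -36.4 kb spans 11.5 in noDOX to 67.2 in AFOS, and Gata3 +43.2 kb spans 14.9 in SOX9+AFOS to 73.9 in SOX9+ARID1a.

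Counted over the 3 windows, the in vivo classes lay on both sides of the background. Regions present in all 5 in vivo lists made 11 of 29 (37.9%), as among all regions (38.2%). None of 18 D0 regions was absent at W1, beside 12.7% of all D0 regions. At W2 5 of 18 were absent (27.8%, beside 19.6%), at W6 7 of 18 (38.9%, beside 19.0%) and at W12 4 of 18 (22.2%, beside 16.3%). Gata3 held 5 of the 7 absent at W6 and Gata6 the other 2. Regions found at D0 and W1 and in no later list were 4 of 29 (13.8%, beside 4.21%), 2 each at Gata3 and Gata6.

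Of in vivo regions absent at D0, 1 of 11 had a peak at W1 (9.09%, beside 20.4%), 6 in W2 (54.5%, beside 38.0%), 9 in W6 (81.8%, beside 67.1%) and 6 in W12 (54.5%, as among all regions). Those found in W2, W6 and W12 and not before were 2 of 29 (6.90%, beside 8.02%), Gata3 +17.5 kb and Gata6 +76.7 kb. Among regions found in both lists, the W2 score was at least 2 times below D0 in 1 of 13 (Gata3 +18.3 kb) beside 8.40% of all regions, and at least double in 2 of 13 (Gata6 +74.7 kb and Gata2 -8.5 kb) beside 11.4%. At W6 it was 1 of 11 (Gata3 +52.7 kb, beside 11.4%) and 2 of 11 (Gata3 +44.8 kb and Gata6 +74.7 kb, beside 11.5%). By fold enrichment neither of the last 2 regions was double at W6. Gata3 +44.8 kb lay above D0 by that measure and Gata6 +74.7 kb below it.

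In culture, 8 of 23 regions were in all 7 lists (34.8%, beside 25.3%). Of 16 noDOX regions, 2 were absent from WT-SOX9 (12.5%, beside 27.9%), 2 from ΔHMG-SOX9 (12.5%, beside 18.4%), 1 from ΔTA-SOX9 (6.25%, beside 19.2%), 1 from AFOS (beside 17.3%) and 1 from SOX9+ARID1a (beside 20.5%). In SOX9+AFOS 8 of 16 were absent (beside 34.8%), 3 at Gata3, 3 at Gata6 and 2 at Gata2. The 7 culture regions absent from noDOX were found in WT-SOX9 in 2 cases (28.6%, beside 31.4%), in ΔHMG-SOX9 in 2 (beside 17.7%), in ΔTA-SOX9 in 4 (57.1%, beside 32.2%), in AFOS in 3 (42.9%, beside 34.6%), in SOX9+AFOS in 1 (14.3%, beside 31.2%) and in SOX9+ARID1a in 2 (beside 28.8%). None of the 7 was at Gata3. The WT-SOX9 score was at least 2 times below noDOX in 3 of 14 shared regions (beside 19.6%) and at least double in 1 of 14 (beside 6.04%).

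The summed score of the called peaks in a window was used to describe the whole locus, and these levels depend on the score being scaled to a like total in each list. A region under the lowest score kept adds nothing. A ratio of sums thus also changes with the number of peaks called and is not a fold change of the same regions. At Gata3 it was 275 at D0, 266 in W1, 258 in W2, 177 in W6 and 198 in W12. By score D0 to W2 stood together and W6 and W12 lower, with a log2 ratio to D0 of -0.09 in W2, -0.64 in W6 and -0.47 in W12. The ratios were -0.34, -0.69 and -0.37 by fold enrichment and -0.43, -0.34 and -0.22 by covered length, so W2 did not stand with D0 by these measures. The median of all genes with peaks in both lists was -0.02 in W6, and 6.95% of them had a lower ratio than Gata3. Gata6 summed to 71.6 at D0, 51.7 in W1, 174 in W2, 90.8 in W6 and 74.2 in W12, with W2 alone far above (log2 ratio to D0 1.29, higher than 97.5% of genes). The Gata6 ratio at W2 was 0.34 by fold enrichment and -0.058 with flanks of 10 kb, which leave out the distal regions. Gata2 summed to 4.69, 12.997, 14.3, 23.4 and 19.0 in the same order and was lowest at D0, from 1 to 4 peaks, but with flanks of 100 kb its ratio of W2 to D0 was -0.43.

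In culture Gata3 summed to 175 in noDOX, 159 in WT-SOX9, 163 in ΔHMG-SOX9, 118 in ΔTA-SOX9, 136 in AFOS, 98.7 in SOX9+AFOS and 157 in SOX9+ARID1a, so every DOX arm lay below noDOX in this window, with SOX9+AFOS the lowest. With flanks of 10 kb the log2 ratio to noDOX was 0.014 in WT-SOX9 and 0.013 in ΔHMG-SOX9, and SOX9+ARID1a (-0.75) lay below SOX9+AFOS (-0.50). The SOX9+ARID1a ratio in the wide window, -0.15, was near the median of all genes, -0.19. Gata6 summed to 51.5 in noDOX, 70.3 in WT-SOX9, 72.9 in ΔHMG-SOX9, 85.6 in ΔTA-SOX9, 140 in AFOS, 29.9 in SOX9+AFOS and 70.6 in SOX9+ARID1a, so SOX9+AFOS was the only arm below noDOX. Gata2 stayed between 14.4 in SOX9+AFOS and 36.4 in ΔTA-SOX9, with 23.3 in noDOX. In these windows SOX9+AFOS was the lowest of the 7 lists at all 3 genes, and the median log2 ratio of SOX9+AFOS to noDOX over all genes was 0.05. With flanks of 10 kb the ratio was 0.24 at Gata6 and 0.0045 at Gata2, so the lower level there came with the wider window.

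**Figure D4:**
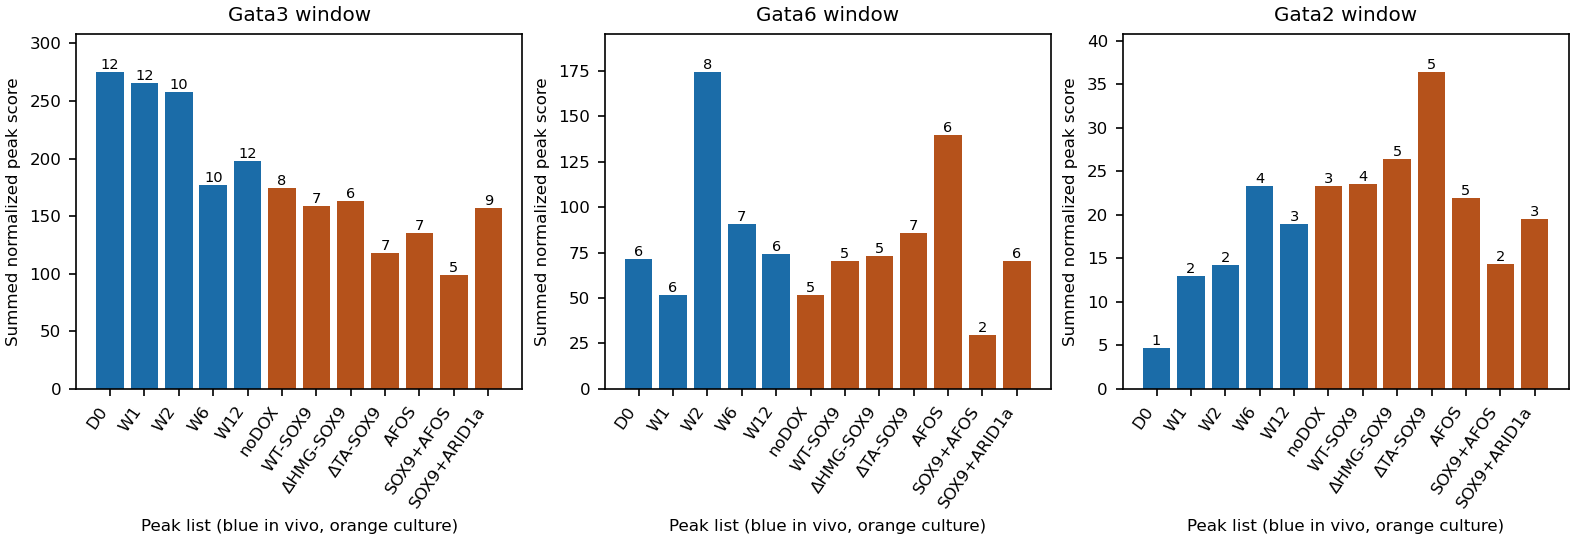
Summed normalized peak score in the window of each gene (y axis, from 0) in the 12 lists (x axis), with the number of peaks above each bar; blue bars are in vivo and orange bars culture lists. Gata3 is highest at D0 (275), Gata6 in W2 (174) and Gata2 in ΔTA-SOX9 (36.4).

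The 3 genes did not share a course over the 12 lists. The Pearson correlation of log2(summed score + 1) was 0.30 between Gata3 and Gata6, -0.60 between Gata3 and Gata2 and 0.13 between Gata6 and Gata2, as a description over points that share lists and scaling and come from 2 systems. The protein-coding genes whose windows were most like Gata3 were Sec62 (0.97), Nuak1 (0.96) and Scara3 (0.96), out of 18452 compared. Those most like Gata6 were Hipk1 and its neighbours Dclre1b and Ap4b1 (each 0.90).

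The other GATA factors and their partners were described by the same counts. The main start of Gata1 and that of Zfpm2 had a peak in no list, that of Gata5 in 1, Gata4 in 4, and Zfpm1 (FOG1, a cofactor of GATA factors) and Trps1 (a repressor with a GATA-type finger) in 11 each, beside 12 for Gata3 and Gata6 and 0 for Gata2. Of D0 regions, 0 of 9 at Trps1, 1 of 7 at Gata4, 1 of 4 at Gata5, 1 of 2 at Gata1 and 2 of 8 at Zfpm1 were absent at W6, beside 19.0% of all D0 regions. The same count was 5 of 11 at Gata3, 2 of 6 at Gata6 and 0 of 1 at Gata2. The 13 regions of Zfpm2 had peaks in culture alone, and 5 of its 8 noDOX regions were absent from WT-SOX9, beside 27.9% of all noDOX regions.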

How the data were processed

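Chromatin accessibility was profiled by ATAC-seq in 24 samples of 12 groups. The authors used the PEPATAC pipeline on mm10 (GRCm38), combined the 2 replicates of each group before MACS2 peak calling with duplicates kept, and normalized the calls for depth with a threshold of 3, as their methods state. The submitters' processing notes name Bowtie2 2.2.9, Picard 2.3.0, SAMtools 1.9, MACS2 2.1.1 and deepTools 2.5.4. The deposited lists give a normalized score for each peak, and the in vivo lists also give the fold enrichment over local background and the −log10 q-value, all as the authors deposited them. The exact scale of the score was not given in the sources used here, and a like total in every list was read from the values. The lowest −log10 q kept was 14.5 at D0, 9.37 in W1, 4.21 in W2, 5.74 in W6 and 10.1 in W12, so the evidence behind a listed peak differed between lists. The peak names of AFOS, SOX9+AFOS and SOX9+ARID1a record fragment input, so peak calling may differ for these arms.

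From these lists, peaks that shared at least 1 bp in any of the 12 lists were merged into regions. A region was present in a list with a peak in it, and its score was the highest of those peaks. Window levels were sums of peak scores over the gene body and 50 kb on each side. Shares over all regions are given beside the class counts of the main setting as the background. Motif letters were searched on both strands in the central 200 bases (for GATA the letters AGATAA, for AP1 the letters TGACTCA, and for SOX either the letters ACAAAG or the letters ACAATG, each with the reverse complement), and 42 regions on other contigs counted as without a match. Named regions were those over a start of the gene, the 3 highest of each window, those gained or lost over time or between noDOX and the SOX9 arms, and the Gata3 intron region. Gata3 -10.8, +44.8, +50.8, +52.7 and +60.0 kb, Gata6 +51.1 kb and Gata2 +44.5 kb were added after their values were seen. The members, lists and rules were chosen with earlier results of these data known. Python 3.11.15, pandas 2.3.3 and NumPy 2.4.6 were used, and merging was tested on simulated data. Alternatives tried were a score of at least 5, in vivo and culture lists each cut to the length of the shortest of their own system, a common q minimum, peaks that cover at least 50% of a region, separate merging of the 2 systems, flanks of 10 and 100 kb, covered length or fold enrichment in place of score, and other motif stretches. No sequence of the Gata6 locus is printed. The genes whose windows were most like Gata2 are not reported here.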

Additional observations from a re-analysis of the deposited data

How the results depend on the processing

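Of the values recomputed under alternatives, 264 were labelled as kept, 90 as moved and 4 as reversed. Kept means a count or ratio within 1.5 times of the main value, or a motif share inside its Wilson interval. A change of sign was labelled as reversed only where the main ratio was at least 1.5 times in either direction. Smaller ratios that changed sign are thus not among the reversed. The Gata3 log2 ratio of W1 to D0, labelled as kept, was -0.050 and became 0.199 with 10 kb. With flanks of 10 kb there were 15 regions in the 3 windows, and with 100 kb there were 63. Regions in all 5 in vivo lists numbered 7 at a score of at least 5 and 4 with 10 kb. D0 regions absent at W2 became 2 and 1 under these settings, and those absent at W6 became 4 and 3. For the counts in this paragraph the shares over all regions were not recomputed. Whether they still differ from the background thus cannot be told. Regions gained at W6 became 4 at a score of at least 5, 3 in lists of equal length within each system, 3 with a common q minimum, 4 with 10 kb and 14 with 100 kb. noDOX regions absent in WT-SOX9 became 1 with 10 kb and 4 with 100 kb, and those gained became 0 at a score of at least 5, 1 in lists of equal length within each system, 1 with 10 kb and 4 with 100 kb.

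The Gata6 log2 ratio of W2 to D0 was -0.058 with 10 kb, 0.13 by covered length and 0.34 by fold enrichment, and its W6 ratio was -0.78 with 10 kb. For Gata2 the W2 ratio was -0.43 with 100 kb and 0.65 by covered length, and the W6 ratio was 1.29 with 10 kb, 0.49 with 100 kb and 1.66 by covered length. The Gata2 ratio of WT-SOX9 to noDOX was 0.86 with 10 kb, and the SOX9+AFOS ratios reversed with 10 kb to 0.24 at Gata6 and 0.0045 at Gata2. Fewer regions enter with narrow flanks, and otherwise the cause was not tested. The share of members with GATA letters was 38.5% with the wider set (beside 27.9% of all regions), and with AGATAA alone 23.1% in 500 bases (beside 24.5%) and 25.6% in whole regions (beside 27.9%). The AP1 share was 38.5% in 500 bases (beside 29.1%) and 43.6% in whole regions (beside 33.0%), and the SOX share 48.7% (beside 52.9%) and 46.2% (beside 57.4%).

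No paired analysis was possible because each list pools its replicates, and for the same reason no replicate could be left out. Score and fold enrichment differed in direction from D0 in 13 of 56 ratios of single regions. No difference here has a replicate check, and read depth is unknown. The Gata3 +18.3 kb region had peaks at D0, W1 and W2 alone among the 12 lists at a score of at least 5, in lists of equal length within each system and with a common q minimum.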
